A study of Danio rerio with 20 samples.

Results

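The islet hormone genes of larval zebrafish were followed in RNA sequencing data from 20 libraries. The 6 genes were ins, gcga, gcgb, pcsk1, pcsk2 and pdx1, taken by their names from a table of 38718 gene models. They comprise the precursor of insulin (ins), the precursors of glucagon and glucagon-like peptides (gcga and gcgb), the convertases that cut these precursors into active hormones (pcsk1 and pcsk2) and a homeobox transcription factor of the pancreas (pdx1).

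The endocrine pancreas is made of islets, in which beta cells release insulin when blood glucose is high and alpha cells release glucagon when it is low. Both hormones are made as long precursors that convertases cut inside secretory granules, and the glucagon precursor yields different peptides depending on the convertase present. In mammals, Pdx1 is needed for the pancreas to form and keeps insulin transcription on in beta cells. The convertases are not specific to islets, since neurons and pituitary cells also use them to process their peptides.

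The drug groups were citalopram 10 µg/L, citalopram 1000 µg/L, ifosfamide 1 µg/L and ifosfamide 100 µg/L, and a further group was named ERM. Citalopram is an antidepressant that blocks the serotonin transporter, and ifosfamide is a chemotherapy drug that alkylates DNA. ERM is not spelled out in the labels, and its treatment entry reads 1 µg/L with no compound. It was used as the comparison group because the design text lists it with no drug. Of 5 beakers per treatment 4 were sequenced, giving 4 libraries per group, lettered A to D, or A, B, C and E in ERM. The labelled tissue is larvae, with no dissection named. The strain, the age of the larvae, the length of exposure and the number of larvae per library are not given in the sources used here. Fewer cells of a type and less RNA per cell cannot be told apart in such samples.

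The libraries held 10699832 to 17311011 recovered reads. Library C at citalopram 1000 µg/L stood apart, where 25952 gene models had any signal, against 28913 to 30110 elsewhere. Correlations of log2(FPKM + 1) within groups ran from 0.844 to 0.978, and the lowest over all pairs was 0.916 without that library. The signal of long against short genes also varied between libraries. This was measured as the length slope, the change in log2(FPKM + 1) per doubling of gene length relative to the mean of all libraries. It was -0.151 in library C and 0.074 in library D at citalopram 1000 µg/L, and from -0.088 to 0.064 in the other 18.

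The levels below are FPKM (fragment counts divided by the length of the gene and the size of the library). This takes gene length into account, but the length slope still differed between libraries, which limits comparisons between genes of different length. In GRCz11 coordinates, ins (ENSDARG00000035350) lies on chromosome 5 at 37854685 to 37857696, plus strand, with 485 bases of counted length. It was carried by 0 to 19 reads per library (median 8.5), 178 in all. gcgb (ENSDARG00000040907, chromosome 9, 51265283 to 51271597, plus strand, 592 bases) had 9 to 54 reads. pdx1 (ENSDARG00000002779, chromosome 24, 21684189 to 21686706, plus strand, 1117 bases) had 6 to 42.

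The remaining genes were better covered. gcga (ENSDARG00000079296, chromosome 22, 11617520 to 11626018, minus strand, 2317 bases) had 27 to 71 reads per library. pcsk1 (ENSDARG00000002600, chromosome 21, 11684830 to 11722343, plus strand, 2516 bases) had 25 to 562 reads, and pcsk2 (ENSDARG00000019451, chromosome 13, 912123 to 977652, plus strand, 1941 bases) had 28 to 475. The table places CU463033.1 over gcga and AL954669.1 over gcgb on the opposite strand, at mean levels of 0.041 and 0.074 FPKM. Whether the counting used strand is not given in the sources used here, and without it reads of each overlapping pair cannot be told apart.

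All 6 genes had a mean of at least 1 FPKM over the 20 libraries and were tested. The mean FPKM over all libraries was 9.23 for pcsk2, 7.83 for pcsk1, 3.43 for gcgb, 1.78 for pdx1, 1.46 for gcga and 1.46 for ins. In these means both convertases stood above the precursor genes ins, gcga and gcgb. pcsk2 was above pcsk1 in 15 of 20 libraries, pcsk1 above gcgb in 14, gcgb above pdx1 in 18, pdx1 above gcga in 13 and gcga above ins in 13. Over all tested gene models, ins lay at percentile 12.5 of mean FPKM and pcsk2 at percentile 72.3.

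**Figure D1:**
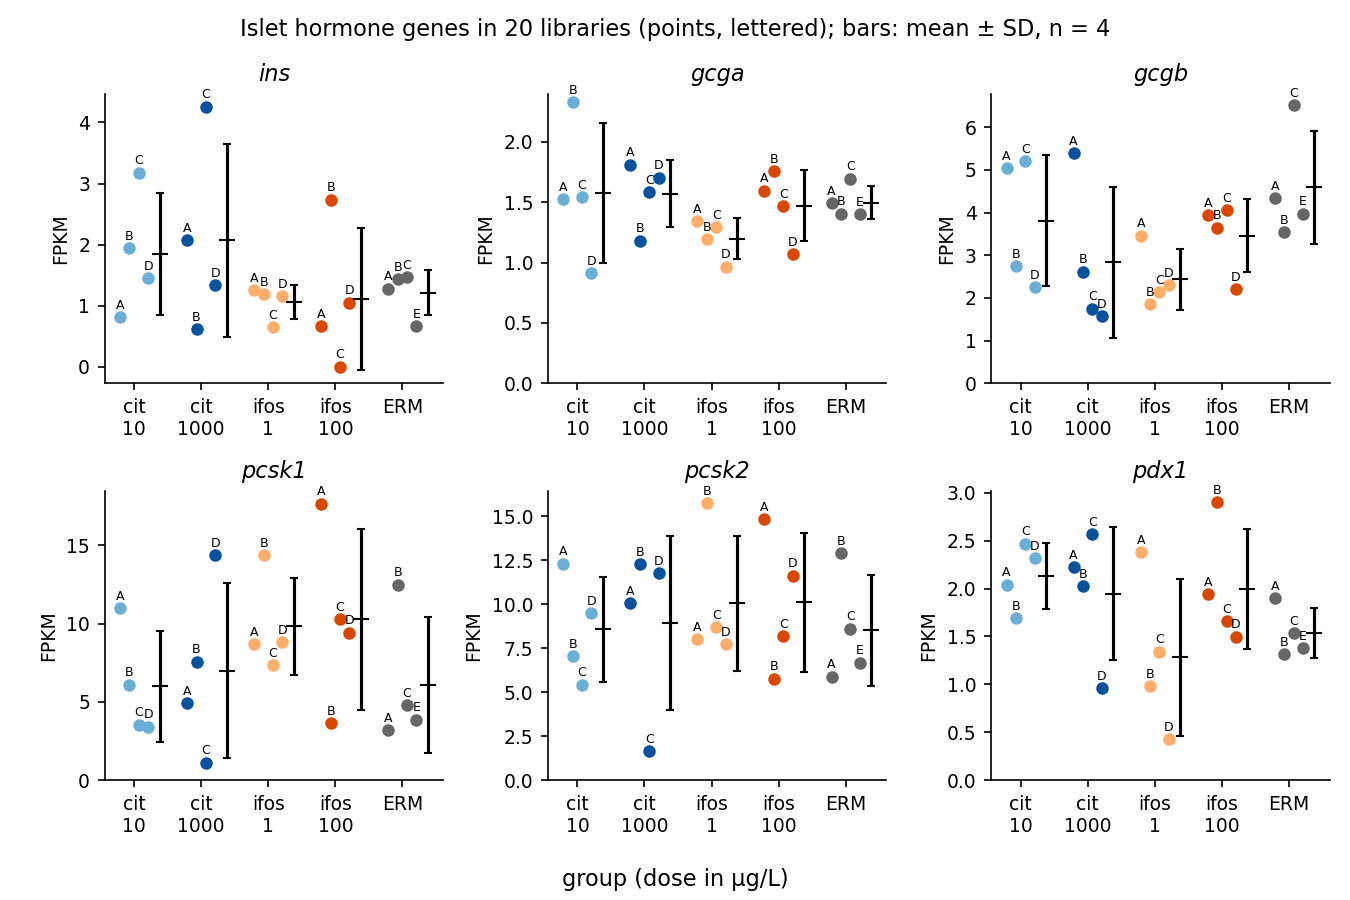
FPKM of the 6 islet hormone genes (y axis, scale differs by panel) in each library, by group on the x axis with doses in µg/L. Lettered points are libraries and bars are the mean ± SD of 4 libraries. In gcga and gcgb all 4 ifosfamide 1 µg/L libraries sit below all 4 ERM libraries, as in 4.8% of all tested gene models. In the other panels every drug group overlaps ERM.

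Insulin precursor RNA was low and varied most in the citalopram groups and at the high ifosfamide dose. In libraries A to D, ins had 0.810, 1.94, 3.18 and 1.46 FPKM at citalopram 10 µg/L and 2.07, 0.614, 4.26 and 1.33 FPKM at citalopram 1000 µg/L. It had 1.25, 1.19, 0.65 and 1.15 FPKM at ifosfamide 1 µg/L and 0.663, 2.74, 0 and 1.05 FPKM at ifosfamide 100 µg/L. ERM libraries had 1.28, 1.44, 1.47 and 0.669 FPKM.

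Library C of the high citalopram dose was thus the highest for ins and library C of the high ifosfamide dose the lowest, and every drug group overlapped ERM. The 0 reads in that ifosfamide library allow a level of up to 0.478 FPKM when 3 reads are taken as the limit, and the exact 95% Poisson interval reaches 0.588 FPKM. Means ± SD (n = 4 each) were 1.85 ± 1.00 and 2.07 ± 1.58 FPKM at the low and high citalopram dose, 1.06 ± 0.277 and 1.11 ± 1.17 FPKM at the low and high ifosfamide dose, and 1.21 ± 0.374 FPKM in ERM. The larger SDs belong to groups in which reads varied 3.31 to 7.48 times as much as counting alone gives (chi-square per degree of freedom). At ifosfamide 1 µg/L and in ERM the ratio was 0.451 and 0.699, so counting alone gives at least that spread.

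The glucagon precursor gene gcga was the steadiest of the 6. It had 1.52, 2.33, 1.54 and 0.914 FPKM in libraries A to D at citalopram 10 µg/L and 1.81, 1.18, 1.58 and 1.70 FPKM at citalopram 1000 µg/L. It had 1.34, 1.19, 1.29 and 0.966 FPKM at ifosfamide 1 µg/L and 1.60, 1.75, 1.47 and 1.07 FPKM at ifosfamide 100 µg/L, against 1.49, 1.40, 1.70 and 1.40 FPKM in ERM. All 4 libraries of ifosfamide 1 µg/L lay below all 4 of ERM, as in 4.8% of all tested gene models. Library A at this dose (1.34 FPKM) came within the counting error of ERM libraries B and E (1.40 FPKM each). The other drug groups overlapped ERM. The mean was 1.2 ± 0.167 FPKM at ifosfamide 1 µg/L and 1.5 ± 0.139 FPKM in ERM (SD, n = 4 each).

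The second glucagon precursor gene, gcgb, had its highest mean in ERM. It had 5.04, 2.75, 5.21 and 2.25 FPKM in libraries A to D at citalopram 10 µg/L and 5.39, 2.61, 1.75 and 1.58 FPKM at citalopram 1000 µg/L. It had 3.46, 1.85, 2.13 and 2.30 FPKM at ifosfamide 1 µg/L and 3.94, 3.64, 4.05 and 2.21 FPKM at ifosfamide 100 µg/L, against 4.34, 3.53, 6.52 and 3.97 FPKM in ERM. At ifosfamide 1 µg/L all 4 libraries lay below ERM, though library A (3.46 FPKM) came within the counting error of ERM library B (3.53 FPKM). At citalopram 1000 µg/L library A lay inside the ERM range and the other 3 below it.

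Group means of gcgb were 3.81 ± 1.53 FPKM at citalopram 10 µg/L, 2.83 ± 1.77 FPKM at citalopram 1000 µg/L, 2.43 ± 0.709 FPKM at ifosfamide 1 µg/L, 3.46 ± 0.850 FPKM at ifosfamide 100 µg/L and 4.59 ± 1.33 FPKM in ERM (SD, n = 4 each). The ratio of gcgb to gcga averaged 2.58, 1.80, 2.04 and 2.34 in the 4 drug groups in the same order and 3.03 in ERM, and it ran from 0.925 to 3.84 over all libraries, below 1 only in library D at citalopram 1000 µg/L. The ratio of ins to the sum of gcga and gcgb averaged 0.359, 0.534, 0.299 and 0.237 in the drug groups and 0.204 in ERM, and every drug group overlapped ERM. At citalopram 1000 µg/L it ran from 0.162 to 1.28, with the highest in library C and a median of 0.347. At ifosfamide 100 µg/L it ran from 0, in library C, to 0.507, with a median of 0.22 against 0.199 in ERM.

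The convertase pcsk1, which in mammals cuts proinsulin and frees glucagon-like peptides, had the widest spread of the 6 on the log2(FPKM + 1) scale. As a coefficient of variation of FPKM over 20 libraries its spread was 57.2%, below the 67.8% of ins. It had 11.0, 6.1, 3.54 and 3.43 FPKM in libraries A to D at citalopram 10 µg/L and 4.91, 7.57, 1.14 and 14.3 FPKM at citalopram 1000 µg/L. It had 8.68, 14.4, 7.37 and 8.83 FPKM at ifosfamide 1 µg/L and 17.65, 3.66, 10.3 and 9.43 FPKM at ifosfamide 100 µg/L, against 3.20, 12.5, 4.8 and 3.87 FPKM in ERM. The highest library was 15.5 times the lowest. ERM library B stood above the other 3 of its group, and both ifosfamide groups held libraries above and below it.

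The means of pcsk1 were 6.01 ± 3.54 FPKM at citalopram 10 µg/L, 6.99 ± 5.57 FPKM at citalopram 1000 µg/L, 9.81 ± 3.11 FPKM at ifosfamide 1 µg/L, 10.3 ± 5.74 FPKM at ifosfamide 100 µg/L and 6.08 ± 4.31 FPKM in ERM (SD, n = 4 each). Its reads varied 35.4 to 126 times as much within groups as counting alone gives. Depth was thus not what limited its precision.

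The convertase pcsk2, which in mammals is the alpha-cell enzyme that frees glucagon, varied in a like way. It had 12.3, 7.06, 5.43 and 9.50 FPKM in libraries A to D at citalopram 10 µg/L and 10.05, 12.3, 1.66 and 11.8 FPKM at citalopram 1000 µg/L. It had 8.01, 15.7, 8.70 and 7.74 FPKM at ifosfamide 1 µg/L and 14.8, 5.77, 8.17 and 11.6 FPKM at ifosfamide 100 µg/L, against 5.88, 12.9, 8.61 and 6.68 FPKM in ERM. Library C at citalopram 1000 µg/L was the lowest of all 20 for both convertases, and ERM library B the highest of its group for both.

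Means of pcsk2 were 8.57 ± 2.99 and 8.93 ± 4.94 FPKM at the low and high citalopram dose, 10.05 ± 3.82 and 10.1 ± 3.97 FPKM at the low and high ifosfamide dose, and 8.52 ± 3.13 FPKM in ERM (SD, n = 4 each). The ratio of pcsk1 to pcsk2 averaged 0.693 ± 0.245 and 0.754 ± 0.322 at the low and high citalopram dose, 0.996 ± 0.139 and 0.974 ± 0.300 at the low and high ifosfamide dose, and 0.662 ± 0.204 in ERM (SD, n = 4 each). Its range was 0.847 to 1.14 at ifosfamide 1 µg/L and 0.544 to 0.967 in ERM, so the groups overlapped. This ratio was not tested.

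The transcription factor gene pdx1 had 2.04, 1.69, 2.47 and 2.32 FPKM in libraries A to D at citalopram 10 µg/L and 2.22, 2.02, 2.57 and 0.964 FPKM at citalopram 1000 µg/L. It had 2.38, 0.979, 1.34 and 0.429 FPKM at ifosfamide 1 µg/L and 1.94, 2.90, 1.66 and 1.5 FPKM at ifosfamide 100 µg/L, against 1.90, 1.32, 1.53 and 1.38 FPKM in ERM. The lowest library, D at ifosfamide 1 µg/L, rested on 6 reads. The range of every drug group overlapped that of ERM, although no library at citalopram 1000 µg/L lay inside the ERM range.

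Means of pdx1 were 2.13 ± 0.344 and 1.95 ± 0.692 FPKM at the low and high citalopram dose, 1.28 ± 0.821 and 2.00 ± 0.625 FPKM at the low and high ifosfamide dose, and 1.53 ± 0.262 FPKM in ERM (SD, n = 4 each). When the 5 groups were ordered by mean for each gene, every pair of neighbouring groups overlapped in range, for all 6 genes.

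**Figure D2:**
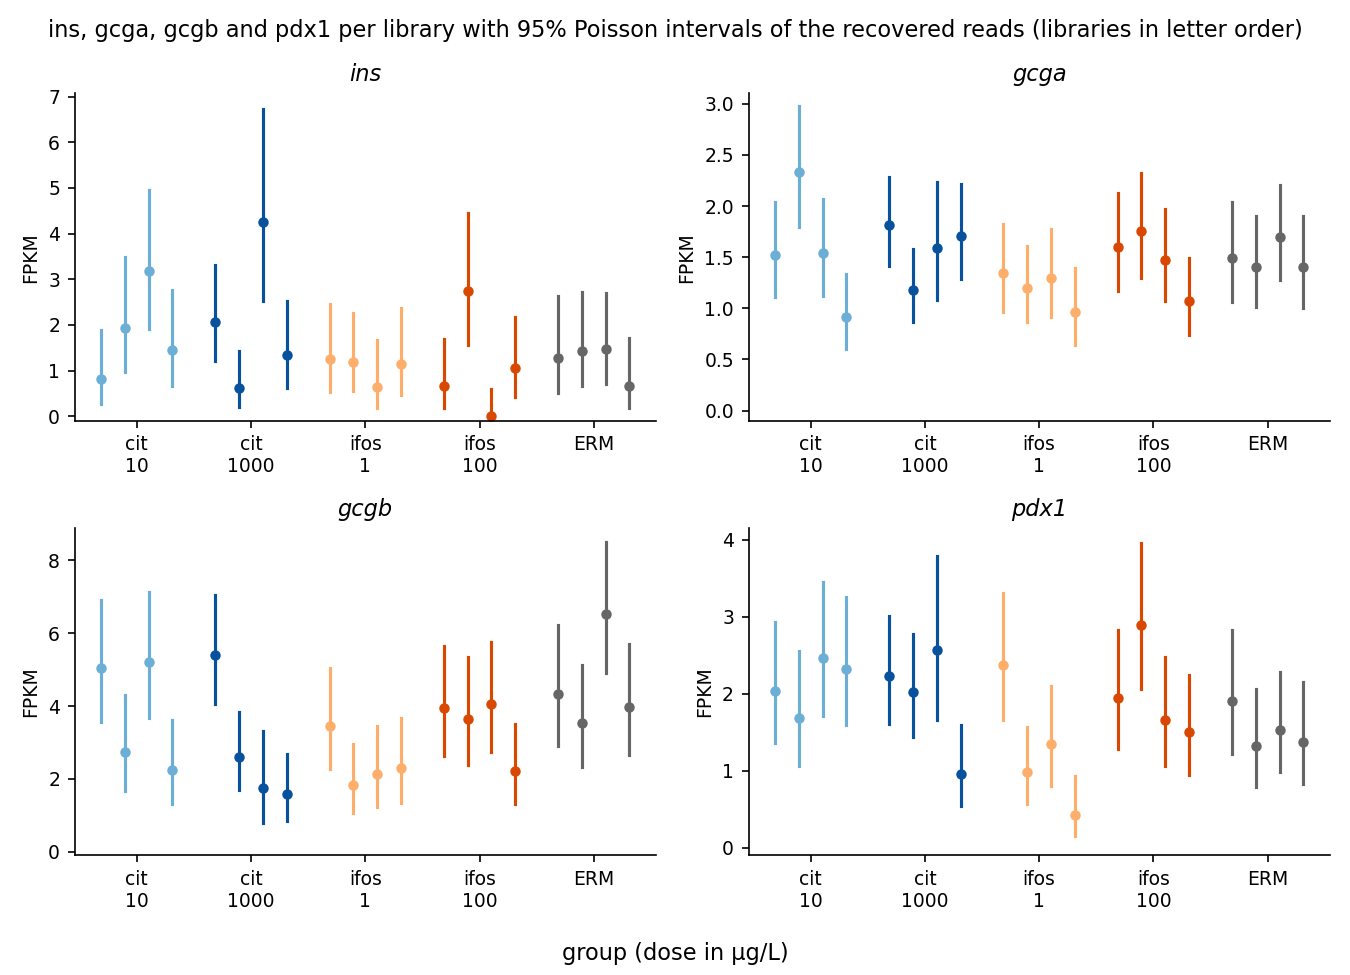
FPKM (y axis) of the 4 genes with the fewest reads in each library, in letter order within the groups on the x axis (doses in µg/L). Vertical lines are exact 95% Poisson intervals of the reads, which cover counting error only. For ins, the intervals of most libraries overlap those of ERM, and the 0 of ifosfamide 100 µg/L has the narrowest line.

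Changes were tested with limma on log2(FPKM + 1), with the p-value adjusted over 19723 gene models by the Benjamini-Hochberg method and 0.05 as threshold. The p-values measure the spread between libraries of separate beakers.

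At citalopram 1000 µg/L the change set against ERM that came nearest the threshold was in the glucagon precursor gene gcgb, at 2.83 FPKM against 4.59 FPKM in ERM. Its difference was -0.62 on the log2(FPKM + 1) scale (SE 0.27, 95% interval -1.19 to -0.04, limma adjusted p = 0.658). Positive differences were found for ins, at 0.35 (SE 0.36, -0.39 to 1.1), and pdx1, at 0.19 (SE 0.23, -0.28 to 0.66). The convertases had 0.01 for pcsk1 (-1.06 to 1.09) and -0.13 for pcsk2 (-1 to 0.74), although the plain mean of pcsk2 was higher than in ERM. gcga had 0.04 (-0.28 to 0.36).

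At this dose 0 of the 6 genes passed, with limma adjusted p of 0.658 or more, where 0.0304% of all tested gene models did. gcgb was the 1 gene with an unadjusted p under 0.05, against 7.27% of all tested gene models. In 0 of the 6 were the groups free of overlap, against 3.68% of all in either direction. The median of the 6 differences was 0.03, against 0.00027 over all tested gene models. With library weights, gcgb stood at -0.17, the smallest difference among the alternatives run, and without library A at -0.90. Without library C, which stands apart, the differences were -0.49 for gcgb, 0.05 for ins, 0.54 for pcsk1, 0.43 for pcsk2, 0.08 for pdx1 and 0.03 for gcga, and 0 of the 6 passed.

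At citalopram 10 µg/L the differences were 0.31 for ins (SE 0.36, 95% interval -0.43 to 1.06), 0.30 for pdx1 (SE 0.23, -0.17 to 0.78), -0.25 for gcgb (SE 0.27, -0.82 to 0.33), 0.03 for pcsk1, 0.02 for gcga and 0.01 for pcsk2. The plain mean of pcsk1 was lower than in ERM, and ins stood between 0.11 without library C at this dose and 0.51 without its library A. Of the 6, 0 passed (limma adjusted p = 1 for each), where 0.0101% of all tested gene models did, and 0 of the 6 had an unadjusted p under 0.05, against 2.42% of all. Groups without overlap made up 0 of the 6 and 2.51% of all. The median was 0.02, against -0.0016 over all tested gene models. Both citalopram comparisons used the same ERM libraries.

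At ifosfamide 1 µg/L both glucagon precursor genes lay below ERM in every library. The difference of gcgb was -0.70 (SE 0.27, 95% interval -1.27 to -0.12, limma adjusted p = 0.787), from 2.43 FPKM at this dose against 4.59 FPKM in ERM. That of gcga was -0.19 (SE 0.15, -0.51 to 0.14, limma adjusted p = 0.787). Of all tested gene models, 4.8% lay wholly below ERM in this comparison, and 6.98% wholly on either side.

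The convertase pcsk1 had the difference of largest size among the 6 at ifosfamide 1 µg/L, 0.73 (SE 0.51, 95% interval -0.34 to 1.81), with an interval that spans both directions. pcsk2 had 0.21 (-0.66 to 1.09), ins -0.10 (-0.84 to 0.65) and pdx1 -0.21 (-0.69 to 0.26). The threshold was passed by 0 of the 6 (limma adjusted p of 0.787 or more) and by 0% of all tested gene models. gcgb had an unadjusted p under 0.05, as did 4.8% of all. With library weights gcgb passed (-0.77, limma adjusted p = 0.0308, range over alternatives 0.0308 to 1), in a fit that called 2033 gene models. The difference of pcsk1 ran from 0.54 without ERM library A to 1.1 without ERM library B, and that of pdx1 from -0.43 without library A at this dose to -0.01 without its library D. The median was -0.14, against -0.0069 over all tested gene models.

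At ifosfamide 100 µg/L gcgb and pcsk1 had differences of -0.32 (SE 0.27, 95% interval -0.89 to 0.25) and 0.67 (SE 0.51, -0.40 to 1.74) from ERM. The others were 0.23 for pdx1 (-0.24 to 0.70), -0.21 for ins (-0.96 to 0.53), 0.20 for pcsk2 (-0.67 to 1.07) and -0.02 for gcga (-0.34 to 0.30). Past the threshold were 0 of the 6 (limma adjusted p of 0.92 or more) and 0% of all tested gene models. At an unadjusted p under 0.05 the numbers were 0 of the 6 and 3.27% of all, and groups without overlap made up 0 of the 6 and 4.3% of all. The median was 0.09, against -0.009 over all tested gene models. The value of ins was -0.84 with a pseudocount of 0.1 and -0.94 with voom, and 0.09 without library C at this dose, which had 0 reads of ins. The difference of pcsk1 ran from 0.37 without library A at this dose to 1.04 without its library B. The 4 comparisons share the ERM libraries, so the negative values of gcgb in them are not independent.

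**Figure D3:**
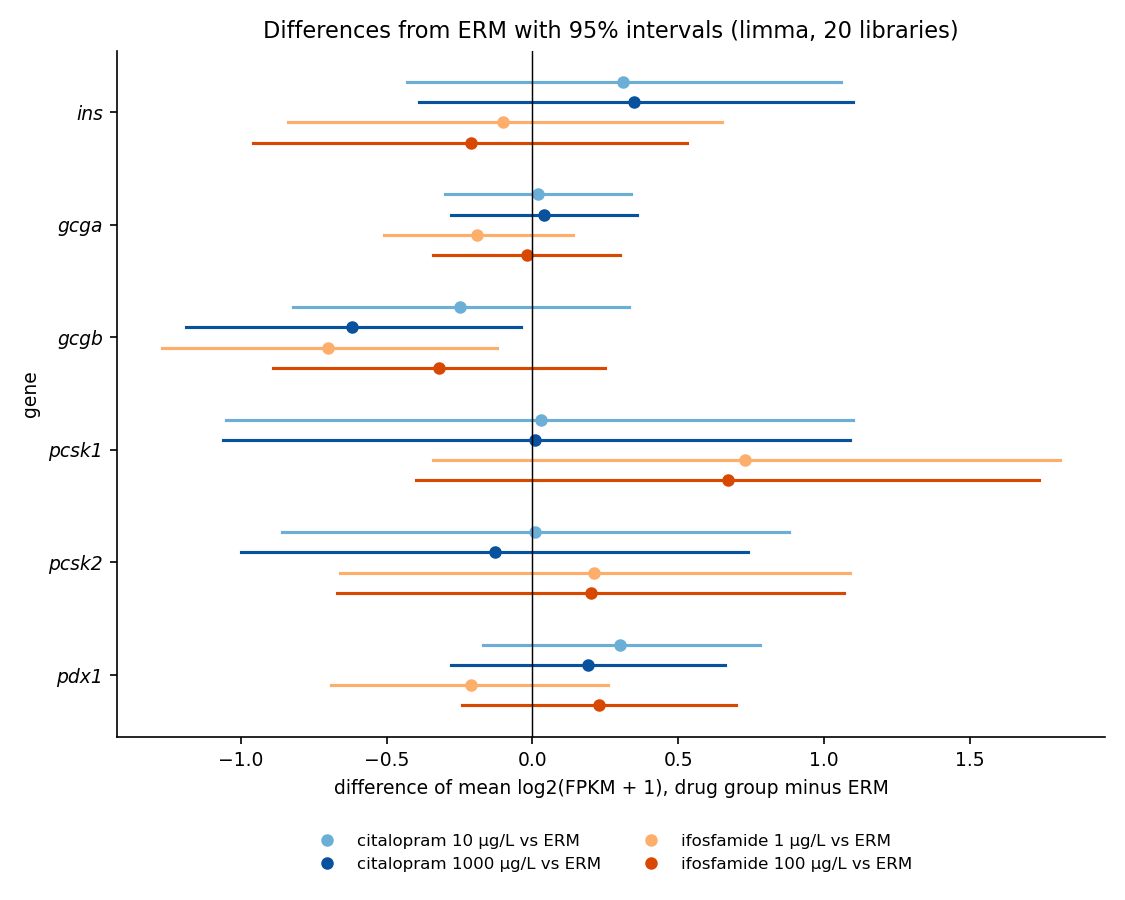
Differences from ERM of the 6 genes (rows), as mean log2(FPKM + 1) of the drug group minus ERM on the x axis, with 95% intervals from limma over 20 libraries and colours for the drug groups. The intervals of gcgb at citalopram 1000 µg/L and ifosfamide 1 µg/L lie below 0 without adjustment for the number of gene models, and all others span 0.

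Between the doses, pdx1 had the difference with the smallest p, 2.00 FPKM at ifosfamide 100 µg/L against 1.28 FPKM at ifosfamide 1 µg/L, or 0.44 on the log2(FPKM + 1) scale (SE 0.23, 95% interval -0.03 to 0.91, limma adjusted p = 1). In the same comparison gcgb had 0.38 (-0.20 to 0.95), gcga 0.16 (-0.16 to 0.48), ins -0.12 (-0.86 to 0.63), pcsk1 -0.06 (-1.14 to 1.01) and pcsk2 -0.01 (-0.88 to 0.86). The plain means of ins, pcsk1 and pcsk2 were higher at the high dose, against the sign of these log2 values. With a pseudocount of 0.1 and with voom the value of ins was -0.68 and -0.77, and that of pdx1 0.77 and 0.80. The medians were 0.08 for the 6 genes and 0.00067 for all tested gene models. At the threshold and at an unadjusted p under 0.05, limma called 0 of the 6, where 0% and 0.852% of all tested gene models were called, and 1.17% of all had doses without overlap.

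For citalopram 1000 against 10 µg/L, gcgb had -0.37 (SE 0.27, 95% interval -0.94 to 0.20), pcsk2 -0.14, pdx1 -0.12, ins 0.04, gcga 0.02 and pcsk1 -0.01. The plain means of pcsk1 and pcsk2 were higher at the high dose and that of gcga lower, against the sign of these log2 values. The threshold and an unadjusted p under 0.05 were each passed by 0 of the 6 (limma adjusted p = 1 for each), where 0% and 3.67% of all tested gene models passed, and 1.28% of all had doses without overlap. All 6 genes overlapped between the doses of each drug. The median was -0.06, against 0.00097. Without library C of the high dose, ins stood at -0.27, gcgb at -0.24, pcsk1 at 0.52 and pcsk2 at 0.42. An F-test over the comparisons against ERM called 0 of the 6, with limma adjusted p of 0.862 to 0.972, and 0% of all tested gene models. None of the 6 had an unadjusted p under 0.05 in it, against 5.77% of all. Voom on the recovered reads also called 0 of the 6 in each comparison.

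The spread between libraries set the width of these intervals, and it differed between the genes. The residual SD on the log2(FPKM + 1) scale was 0.809 for pcsk1, 0.652 for pcsk2, 0.548 for ins, 0.414 for gcgb, 0.328 for pdx1 and 0.191 for gcga, with a median of 0.301 over all tested gene models. pcsk1 lay at percentile 98.6 of these SDs and pcsk2 at percentile 95.8, while gcga lay at percentile 14.4. The convertases carried the most reads. The pseudocount of 1 shrinks the spread of low genes on this scale, and as coefficients of variation of FPKM the order was ins at 67.8%, pcsk1 at 57.2%, gcgb at 40.6%, pcsk2 at 37.7%, pdx1 at 34.7% and gcga at 22.3%.

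Both convertases moved with the length slope of the library. Over 20 libraries the correlation with the slope was 0.810 for pcsk1 (Spearman 0.770) and 0.760 for pcsk2 (Spearman 0.618), and 0.773 and 0.768 within groups. Without library C of citalopram 1000 µg/L it was 0.715 and 0.534, and without the 2 libraries farthest from the median slope 0.693 and 0.412. ins and pdx1 ran the other way, with -0.658 and -0.617 over all libraries and -0.300 and -0.581 without those 2 libraries.

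For the glucagon genes the correlation with the slope was -0.314 for gcga and -0.295 for gcgb, and that of gcgb was -0.730 without library C. The slope is made of the same libraries and values as the levels, so these coefficients describe shared variation. Slopes were between -0.001 and 0.064 at the low ifosfamide dose and between -0.006 and 0.051 at the high dose, against -0.028 to 0.012 in ERM.

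With the slope as a covariate, an alternative added after the data were seen, the difference of pcsk1 from ERM was 0.17 at ifosfamide 1 µg/L and 0.18 at ifosfamide 100 µg/L, in place of 0.73 and 0.67. That of gcgb was -0.58 at ifosfamide 1 µg/L and -0.67 at citalopram 1000 µg/L. The residual SD became 0.531 for pcsk1, 0.432 for pcsk2, 0.452 for ins, 0.25 for pdx1, 0.405 for gcgb and 0.195 for gcga. The source of the slope was not tested.

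**Figure D4:**
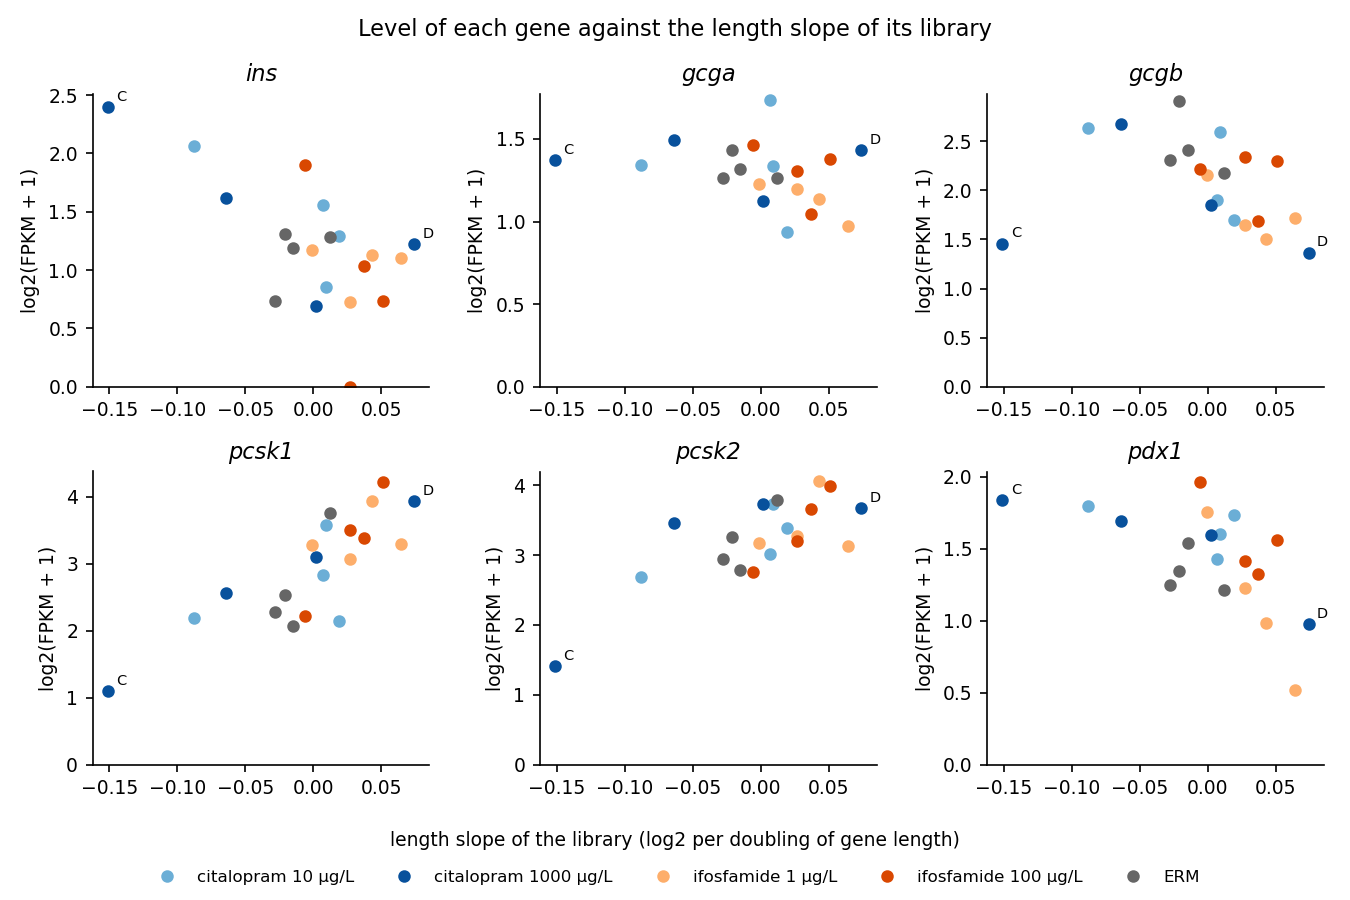
Level of each gene as log2(FPKM + 1) (y axis) against the length slope of its library (x axis, log2 per doubling of gene length). Points are 20 libraries coloured by group, and libraries C and D of citalopram 1000 µg/L are lettered. pcsk1 and pcsk2 are higher in libraries with higher slopes, ins and pdx1 lower.

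Among the 6 genes the closest pair were the convertases, with a correlation of 0.853 between pcsk1 and pcsk2 over 20 libraries (Spearman 0.802). It was 0.869 within groups, 0.795 without library C of citalopram 1000 µg/L, and 0.623 after both were adjusted for the length slope. Among the hormone precursors the correlation was 0.330 between ins and gcga (Spearman 0.519), -0.0399 between ins and gcgb and 0.378 between gcga and gcgb. pdx1 and ins stood at 0.389, and at -0.0294 after the slope was taken out.

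The genes whose pattern over 20 libraries was most like each of the 6 were sought by Spearman correlation among 13285 tested genes with a symbol that is not a placeholder. For pcsk1 these were dock3, a regulator of small GTPases (0.987), arfgef3 (0.987) and the sodium/calcium exchanger gene slc8a2b (0.985), and pcsk2 ranked 1342nd. For pcsk2 they were the zinc finger genes znf385c and znf536 (0.937 each) and the catenin gene arvcfa (0.926), and pcsk1 ranked 351st. The gene models of dock3, arfgef3 and slc8a2b have 7518, 6689 and 3458 bases, and both convertases moved with the length slope. The part of the slope in these coefficients was not tested.

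For ins the most alike were habp2, a secreted protease gene (0.856), serpinf2b, an antiplasmin gene (0.847), and nudt9 (0.847). In this ranking gcga was 1455th, pdx1 2303rd and gcgb 6311th. For gcga they were glipr2l (0.799), dpm2 (0.741) and c1galt1c1 (0.662), and ins ranked 85th. For gcgb they were cluap1, a gene of cilium transport (0.835), the ribosomal protein gene rpl36a (0.803) and kri1 (0.794). For pdx1 they were the cytokine gene mif (0.863), id1, which codes for an inhibitor of helix-loop-helix factors (0.83), and gnsa, a lysosomal sulfatase gene (0.821). With few reads behind ins, gcgb and pdx1, such coefficients include counting error.

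Other genes of the islet and its targets were read through 10 fixed lists. Of 180 symbols, 162 distinct gene models were found in the table. In each comparison limma called 0 members of every list, where between 0% and 0.0304% of all tested gene models passed, and 0 to 5 members of a list had an unadjusted p under 0.05, against 0.852% to 7.27% of all tested gene models. The median difference from ERM over all tested gene models lay between -0.009 and 0.00027 in the 4 comparisons.

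Of the other islet hormones, 8 of 10 gene models were tested. The somatostatin gene sst1.1 was the most abundant at a mean of 49.3 FPKM, well above the insulin and glucagon precursors. The part of islet delta cells in this value was not tested. sst1.1 had 48.4 ± 19.3 and 70.2 ± 35.4 FPKM at the low and high citalopram dose, 37.3 ± 7.51 and 42.3 ± 17.6 FPKM at the low and high ifosfamide dose, and 48.4 ± 6.16 FPKM in ERM (SD, n = 4 each). At ifosfamide 1 µg/L all 8 had negative differences from ERM, with a median of -0.37 and limma adjusted p of 0.787 or more. The libraries differed. The median log2 deviation of the list was 0.214 in library A at this dose and -0.474 to -0.154 in libraries B to D, against -0.0285 to 0.202 in ERM. The summed level was 74.9 to 102.5 FPKM at this dose, against 104.9 to 133.5 FPKM in ERM. At ifosfamide 100 µg/L 7 of 8 were negative with a median of -0.21, while at citalopram 10 and 1000 µg/L 3 and 5 of 8 were positive.

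The somatostatin gene sst2 averaged 3.94 ± 2.00, 5.01 ± 3.23, 2.59 ± 1.05 and 2.21 ± 0.627 FPKM in the drug groups and 3.64 ± 1.54 FPKM in ERM (SD, n = 4 each), and sst1.2 4.95, 9.08, 5.47 and 4.8 FPKM in the drug groups and 5.52 FPKM in ERM. The second insulin gene, insb, was at 0 in 12 of 20 libraries, with 22 reads in all and a mean of 0.092 FPKM. It was not tested. Of its group means, 0 FPKM at ifosfamide 1 µg/L was the lowest and 0.177 FPKM at citalopram 1000 µg/L the highest, against 0.0366 FPKM in ERM. The mean at citalopram 1000 µg/L rested on library C, at 0.651 FPKM where the other 3 had 0 to 0.0563 FPKM, and the mean at citalopram 10 µg/L was 0.175 FPKM.

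Of 26 gene models of islet transcription factors, 17 were tested. neurod1, which acts in endocrine and neuronal differentiation, had 115.6, 137.8, 116.2 and 122.7 FPKM in the drug groups and 113.4 FPKM in ERM. isl1, a LIM homeobox gene of islets and motor neurons, had 22.5, 22.7, 19.8 and 21.0 FPKM in the drug groups and 19.7 FPKM in ERM, and pax6b, needed for islet and eye cells, had 4.34, 4.37, 5.31 and 5.57 FPKM against 3.67 FPKM.

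At citalopram 1000 µg/L 15 of the 17 transcription factor genes had positive differences (median 0.17), with foxa2, a regulator of endoderm, at 0.68 (SE 0.24, limma adjusted p = 0.464). The other 9 were below the filter, and of these mnx1 was listed at 0 in all 20 libraries. hnf1bb averaged 1.34, 1.23, 2.13 and 2.03 FPKM in the drug groups and 2.04 FPKM in ERM.

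Of 18 gene models for granule proteins and prohormone processing, 16 were tested. At citalopram 10 µg/L 7 had positive and 9 negative differences from ERM (median -0.06). At citalopram 1000 µg/L 10 were positive and 6 negative (median 0.05). The granin gene chgb, whose protein is packed with hormones in granules, had the smallest F-test p of all list members. It had 9.77 ± 3.35 FPKM at citalopram 10 µg/L and 7.61 ± 1.79 FPKM at citalopram 1000 µg/L, against 14.7 ± 2.77 FPKM in ERM (SD, n = 4 each). The difference was -0.88 at citalopram 1000 µg/L (SE 0.22, 95% interval -1.34 to -0.42, limma adjusted p = 0.189), and its range of 5.54 to 9.40 FPKM did not overlap that of 11.5 to 17.3 FPKM in ERM. The share of all tested gene models that lay wholly below ERM in that comparison was 2.27%. chgb was named by its F-test p, so its separation is not independent of that choice, and the share covers genes not picked in this way.

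cpe, the carboxypeptidase that trims cut hormones, averaged 22.2, 27.2, 30.6 and 29.8 FPKM in the drug groups and 23.3 FPKM in ERM, and its difference at ifosfamide 1 µg/L was 0.37 (SE 0.16, limma adjusted p = 0.787). The zinc transporter gene of insulin granules, slc30a8, was below the filter at 0.216 FPKM.

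Of 17 gene models for glucose sensing and secretion, 14 were tested. abcc8, a subunit of the potassium channel that couples glucose to insulin release, had 3.83, 3.64, 4.37 and 5.39 FPKM in the drug groups and 4.64 FPKM in ERM. Of 3 gene models named cacna1db, a calcium channel subunit, that with the smallest F-test p had 2.63, 2.97, 4.30 and 4.77 FPKM against 2.21 FPKM in ERM. Its mean over all libraries was 3.38 FPKM, and the other gene models of this name averaged 5.40 and 1.53 FPKM. All 3 count among the 14 tested. The median of this list was 0.38 at ifosfamide 1 µg/L and 0.23 at ifosfamide 100 µg/L. Over 20 libraries the median deviation of the list had a correlation of 0.938 with pcsk1 and 0.850 with pcsk2, and these share the libraries and their length slopes. gck, the glucose sensor of beta cells and liver, averaged 0.458 FPKM. kcnj11 was listed at 0 in all libraries, while kcnj11l on the same list was tested at a mean of 4.61 FPKM.

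Receptors and targets of insulin were read through 22 gene models, of which 18 were tested. At each citalopram dose 7 had positive and 11 negative differences from ERM (medians -0.02 and -0.04 at the low and high dose). At ifosfamide 1 µg/L 11 were positive and 7 negative (median 0.04). At ifosfamide 100 µg/L 10 were positive and 8 negative (median 0.06). The insulin receptor gene insra had 19.7, 18.9, 19.3 and 20.7 FPKM in the drug groups and 19.1 FPKM in ERM, with differences of -0.04 to 0.10 and intervals within -0.32 to 0.38. insrb had 8.74, 7.23, 12.1 and 11.6 FPKM in the drug groups and 7.92 FPKM in ERM, with differences of -0.30 to 0.58.

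igfbp1a, a binding protein of insulin-like growth factors that is repressed by insulin in mammals, had its highest mean in ERM. It averaged 87.9 ± 3.94, 78.0 ± 20, 77.8 ± 11.0 and 83.1 ± 16.7 FPKM in the drug groups and 123.7 ± 29.7 FPKM in ERM (SD, n = 4 each). The differences were -0.46 (SE 0.20), -0.67, -0.64 and -0.56, with limma adjusted p of 1, 0.316, 0.787 and 0.92. At citalopram 10 and ifosfamide 1 µg/L the drug libraries reached 92.0 and 89.9 FPKM, below the lowest ERM library at 94.5 FPKM, a separation found in 1.13% and 4.8% of all tested gene models. igfbp1a was named for the smallest F-test p of its list, so its separation is not independent of that choice. The shares cover all tested gene models, not genes picked in this way. The 4 comparisons share the ERM libraries. akt2l, a kinase gene of the insulin pathway, averaged 53.8, 54.1, 31.8 and 37.9 FPKM in the drug groups and 51.7 FPKM in ERM.

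Of 15 gene models for the glucagon receptor and hepatic glucose output, 13 were tested, and in both ifosfamide groups most had negative differences, 11 of 13 at the low dose (median -0.24) and 12 of 13 at the high dose (median -0.34). At an unadjusted p under 0.05 were 2 and 5 of 13, against 4.8% and 3.27% of all tested gene models. The receptor gene gcgra had 1.06, 0.947, 1.30 and 1.18 FPKM in the drug groups and 1.39 FPKM in ERM.

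pck1, the rate-limiting enzyme of gluconeogenesis, averaged 593.6 ± 142 and 782.2 ± 288 FPKM at the low and high citalopram dose, 421.4 ± 12.7 and 434.9 ± 147 FPKM at the low and high ifosfamide dose, and 688.4 ± 118 FPKM in ERM (SD, n = 4 each). Its difference was -0.69 at ifosfamide 1 µg/L (SE 0.26, 95% interval -1.24 to -0.14, limma adjusted p = 0.787) and -0.70 at ifosfamide 100 µg/L (SE 0.26, limma adjusted p = 0.92). g6pca.1, the last enzyme of glucose release, had 8.36, 10.2, 7.51 and 6.37 FPKM in the drug groups and 9.15 FPKM in ERM, with -0.47 at ifosfamide 100 µg/L (SE 0.17, limma adjusted p = 0.92).

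Lists of other cell types that express the same genes or lie beside islets were read in the same way. Of 17 tested genes of the exocrine pancreas, 15 had positive differences at citalopram 10 µg/L (median 0.17) and 15 at citalopram 1000 µg/L (median 0.30), while 15 were negative at ifosfamide 1 µg/L (median -0.26) and 17 at ifosfamide 100 µg/L (median -0.21). The median deviation of this list over 20 libraries had a correlation of 0.773 with ins, 0.602 with pdx1, -0.781 with pcsk1 and -0.667 with pcsk2. Without library C of citalopram 1000 µg/L these were 0.672, 0.617, -0.668 and -0.283, so that of pcsk2 rested on this library. The summed level of its 17 genes was 18190 to 28190 and 17900 to 53120 FPKM at the low and high citalopram dose and 13190 to 21370 and 13360 to 27740 FPKM at the low and high ifosfamide dose, against 18060 to 22370 FPKM in ERM. Its digestive enzyme genes cpa4 and cel.2 averaged 192.9 and 120.6 FPKM at ifosfamide 1 µg/L, against 258.8 and 152.8 FPKM in ERM. Library C at citalopram 1000 µg/L had the highest ins and the highest cpa4 (665 FPKM) of its group. Correlations of this size were not particular to the exocrine list. The list of other islet hormones had 0.602 with ins, 0.732 with pdx1 and -0.757 with pcsk1 over 20 libraries. The list of insulin receptors and targets had -0.753 with ins. All these lists share the libraries and their length slopes. The part of exocrine tissue in the ins and pdx1 values was not tested.

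Of 12 tested neuron genes the median difference lay between -0.08 and 0 in the comparisons with ERM. Their summed level ranged over 488.9 to 630.1 and 523.7 to 713.9 FPKM at the low and high citalopram dose and over 507.7 to 628.7 and 620.4 to 688.6 FPKM at the low and high ifosfamide dose, against 570.5 to 675.8 FPKM in ERM. The neuronal RNA-binding protein gene elavl3 averaged 25.9, 28.0, 46.6 and 45.0 FPKM in the drug groups and 32.8 FPKM in ERM. snap25b, a gene of synaptic release, averaged 93.8, 124.2, 86.5 and 97.6 FPKM in the drug groups and 87.0 FPKM in ERM. The SD of snap25b at citalopram 1000 µg/L was 40.6 FPKM. The neuron list correlated with pcsk1 at 0.381 and with pcsk2 at 0.448 over 20 libraries. The part of neurons in the convertase values was not tested.

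Of 11 pituitary hormone genes only pomca and gh1 were tested, and their summed level was 11.8 to 57.5, 26.0 to 142.5, 6.44 to 60.9 and 4.79 to 55.9 FPKM in the drug groups, against 7.61 to 18.0 FPKM in ERM. At citalopram 1000 µg/L the median of their differences from ERM was 1.68 (limma adjusted p of 0.292 or more). Both had an unadjusted p under 0.05, against 7.27% of all tested gene models. Both also lay wholly above ERM at this dose, as did 1.4% of all. pomca, at a mean of 1.28 FPKM over all libraries, passed the filter of 1 FPKM through its level at this dose. Its values in this comparison, and the median that includes them, are therefore not independent of the filter. gh1, the growth hormone gene, averaged 24.4, 56.5, 23.1 and 18.2 FPKM in the drug groups and 10.6 FPKM in ERM, and pomca, whose product both convertases process in mammals, 0.928, 2.97, 1.03 and 0.885 FPKM in the drug groups and 0.588 FPKM in ERM. The list of gut hormone genes includes the peptide genes adcyap1b, penkb, galn, vip and vipb, and adcyap1b had the highest mean FPKM on it. The part of neurons in the values of this list was not tested. Of its 9 tested genes, all 9 had negative differences at ifosfamide 1 µg/L (median -0.24). Their summed level was 54.3 to 68.1 FPKM at this dose, against 65.4 to 74.4 FPKM in ERM. galn had 1.27 ± 0.267 FPKM at ifosfamide 1 µg/L and 1.95 ± 0.648 FPKM in ERM (SD, n = 4 each), and vipb 2.12 ± 0.327 FPKM and 2.83 ± 0.496 FPKM. Their highest group means were at citalopram 1000 µg/L, 2.89 ± 1.08 FPKM for galn and 5.54 ± 5.22 FPKM for vipb, which ran from 1.90 to 13.2 FPKM. At that dose 7 of the 9 genes had positive differences from ERM (median 0.21). At citalopram 10 and ifosfamide 100 µg/L 7 of 9 were negative (medians -0.18 and -0.07). Over 20 libraries the gut hormone list correlated with gcgb at 0.296, and at 0.805 without library C of citalopram 1000 µg/L. Without that library gcgb also had 0.593 with the list of other islet hormones and -0.730 with the length slope. Gut cells that express glucagon genes cannot be told apart from islets in larval RNA.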

How the data were processed

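RNA of larvae was extracted with TRIzol, poly(A)-selected and made into directional libraries, per the labels' protocols. GRCz11 is the build in the submitters' processing notes, which also list DESeq2, featureCounts, HISAT2 and fastp, without versions or roles. The authors deposited FPKM per gene model with lengths and positions, and FPKM times length gave whole reads for 100% of values within 0.01. The scale of each library matched a median-of-ratios size factor, with 0 libraries off by over 1e-06. Depth was the sum of recovered reads, and Poisson intervals of these cover counting error only.

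limma 3.58.1 in R 4.3.3 was fitted on log2(FPKM + 1) with an intensity trend and 1 coefficient per group, on 19723 gene models with a mean of at least 1 FPKM, with 15 residual degrees of freedom. Fold changes on this scale understate those of low genes. Tests are two-sided, with Benjamini-Hochberg adjustment within each of 6 comparisons and the F-test over 4. The model was tested on simulated data. All 6 genes passed the filter, so a permutation test planned for genes below it was not needed. Correlations are descriptions without p-values. Same-letter libraries of ifosfamide 1 µg/L and ERM deviated together, with correlations over 0.1 for every letter (A 0.163, B 0.389, C 0.113), as in no other pair of groups. Those of citalopram 1000 and ifosfamide 1 µg/L were also positive for every letter (0.0266 to 0.314).

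The 6 genes and the lists were chosen with earlier results of these data known. Named genes were the 6, of each list those past the threshold or else the 2 with the smallest F-test p, 9 fixed genes, and the 3 genes most like each of the 6. mnx1, slc30a8, gck and kcnj11, which lie below the filter, were named after their values were seen, as were kcnj11l and adcyap1b, which passed it. Alternatives were another pseudocount (0.1), no filter, scaling to total reads, voom on recovered reads, library weights, only the libraries compared, a replicate block, each library left out and, added after seeing the data, the length slope as a covariate. Figures were drawn with matplotlib 3.10.9.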

Additional observations from a re-analysis of the deposited data

Results flagged for a closer look

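In groups of 4 libraries, a library was singled out where its gap to the nearest other was a larger share of the group's whole range than Dixon's 95% critical value. Of 169 groups over 34 genes 13 had such a library, and 2 of 30 groups of the 6 islet hormone genes. Chance gives about 1 in 20 for continuous, normally distributed values, a rate that need not hold for genes with few reads. For ins, library C at ifosfamide 1 µg/L had 0.65 FPKM and the other 3 had 1.15 to 1.25. For pcsk2, library B at ifosfamide 1 µg/L had 15.7 FPKM against 7.74 to 8.70.

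Among other islet genes, sst1.1 had 77.1 FPKM in library D at citalopram 10 µg/L against 35.5 to 41.5, hnf1bb had 3.24 FPKM in ERM library B against 1.49 to 1.73, and pax6b had 2.90 FPKM in library B at ifosfamide 100 µg/L against 6.08 to 6.67. The insulin gene insb had 0.651 FPKM in library C at citalopram 1000 µg/L against 0 to 0.0563, and 0.147 FPKM in ERM library B with 0 in the other 3. Where the other 3 are at 0, the rule singles out the remaining library whatever its value. insb had 22 reads in all. The receptor gene insra had 23.5 FPKM in library D at ifosfamide 100 µg/L against 19.5 to 20.1.

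Library C at citalopram 1000 µg/L also had the highest values of the exocrine gene cpa4, 665 FPKM against 279 to 302, and of the pituitary gene gh1, 130 FPKM against 21.7 to 36.9. Of the neuron genes, elavl3 had 56.6 FPKM in ERM library B against 23.0 to 25.8. snap25b had 104 FPKM in library A at citalopram 10 µg/L against 89.3 to 91.1, and 64.3 FPKM in library B at ifosfamide 1 µg/L against 92.4 to 94.9.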

How the results depend on the processing

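The counts of islet hormone genes past the threshold, 0 in each of 7 tests, were also 0 under 122 of 123 alternatives. With library weights gcgb passed at ifosfamide 1 µg/L, which made 1 gene (-0.77, limma adjusted p = 0.0308, range over alternatives 0.0308 to 1), in a fit that called 2033 gene models. Of 576 alternatives of single differences, 76 changed sign, in 20 of 36 differences, of which 19 were within 0.25 of 0. Over all groups, 13 of 36 same-letter correlations were over 0.1 (-0.435 to 0.424), and of the group pairs only ifosfamide 1 µg/L and ERM had all over 0.1. With the replicate block, which leaves ERM E unmatched, pcsk1 was -0.16 and pcsk2 -0.14 at citalopram 10 µg/L, pcsk1 -0.17 at citalopram 1000 µg/L and gcga 0.02 at ifosfamide 100 µg/L. At ifosfamide 1 µg/L gcgb was -0.62 and pcsk1 0.55 with the block (limma adjusted p = 0.999 each), and no call of the 6 genes changed.

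The other signs that changed were these, all against ERM unless a dose pair is given. Pseudocount 0.1 gave pcsk1 -0.06 at citalopram 1000 µg/L. Scaling to total reads gave pcsk2 -0.01 at citalopram 10 µg/L, gcga -0.01 at citalopram 1000 and 0.06 at ifosfamide 100 µg/L, and ins -0.02 and gcga -0.02 between citalopram doses. Voom gave gcga -0.01 at citalopram 10 µg/L, and ins -0.11 and pcsk1 0.02 between citalopram doses. Library weights gave pcsk2 0.41 at citalopram 1000 µg/L, and between citalopram doses ins -0.07, gcga -0.07, gcgb 0.21, pcsk1 0.01, pcsk2 0.30 and pdx1 0.04, and between ifosfamide doses pcsk1 0.25 and pcsk2 0.18. The length slope as covariate gave pcsk2 0.08 at citalopram 1000 µg/L, ins 0.20 and pcsk2 -0.24 at ifosfamide 1 µg/L, ins 0.05, gcga 0.01 and pcsk2 -0.19 at ifosfamide 100 µg/L, ins -0.10, pcsk1 0.25 and pcsk2 0.07 between citalopram doses, and pcsk1 0.01 and pcsk2 0.05 between ifosfamide doses. The cause was not tested.

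With each library left out, the lowest and highest values of differences whose sign changed were, at citalopram 10 µg/L, -0.11 and 0.15 for gcga, -0.27 and 0.39 for pcsk1, and -0.17 and 0.21 for pcsk2. At citalopram 1000 µg/L they were -0.01 and 0.11 for gcga, -0.41 and 0.54 for pcsk1, and -0.35 and 0.43 for pcsk2. At ifosfamide 1 µg/L they were -0.23 and 0.01 for ins, and 0.00 and 0.41 for pcsk2, and at ifosfamide 100 µg/L -0.08 and 0.06 for gcga, and -0.54 and 0.09 for ins. Between citalopram doses they were -0.12 and 0.15 for gcga, -0.27 and 0.30 for ins, -0.43 and 0.52 for pcsk1, -0.36 and 0.42 for pcsk2, and -0.22 and 0.07 for pdx1. Between ifosfamide doses they were -0.44 and 0.19 for ins, -0.36 and 0.31 for pcsk1, and -0.21 and 0.21 for pcsk2. ins, gcgb and pdx1 had at most 54 reads per library, and within several groups their spread exceeded counting error.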
